A study of Mus musculus with 12 samples.

Results

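The collagen genes were taken as the protein-coding genes whose mouse symbol is Col, a number, the letter a and a number, such as Col1a1. The rule uses names and no measured value. It gave 44 genes of the 48526 in the count files, 21760 of which are protein-coding in the annotation used here. All 44 were found by their Ensembl identifiers.

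RNA was sequenced from adult mouse ventricular cells of 4 groups with 3 libraries each. The groups were WT Purkinje cells (WT PCs), Ncam-1 KO Purkinje cells (KO PCs), WT ventricular myocytes (WT VMs) and Ncam-1 KO ventricular myocytes (KO VMs). The WT and the KO animals both carried the Cntn2-EGFP BAC transgene, a reporter driven by the regulatory DNA of Cntn2 and kept on a CD1 background. The KO line carries a germline null allele of Ncam-1, which encodes a neural cell adhesion molecule, and was kept on C57BL/6. The loss was therefore present in every cell of the animal and not in PCs alone. Digested hearts were incubated with 50 nM TMRM, a dye of active mitochondria, for 15 min. Cells positive for the dye and for GFP were collected as PCs and cells positive for the dye alone as VMs. The gates used no marker against fibroblasts, endothelial cells or macrophages. The labels do not say whether the replicates of a group came from different animals, so p-values measure the spread between these libraries, which may be technical in part.

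Collagens are the main structural proteins of the extracellular matrix. Each molecule is built from chains that wind around one another, and each chain is the product of its own gene. In the heart, cardiac fibroblasts make most of the fibrillar collagens I and III, which carry tension between muscle bundles. Type IV collagen forms the network of the basement membrane, the sheet around every cardiomyocyte and capillary. Type VI collagen forms beaded filaments that link that sheet to the interstitial fibrils. Purkinje fibres, the conducting cells beneath the endocardium, are wrapped in connective tissue that insulates them from the working muscle.

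Between 13883427 and 42505705 read pairs per library were counted on genes, of which 1532393 to 6761356 lay outside the mitochondrial genome. Collagen genes took 0.0142% to 0.0530% of the latter. Ncam1 had 83, 34 and 116 counts in the WT PC libraries, 0, 1 and 1 in KO PCs, 6, 0 and 9 in WT VMs and 0 in each KO VM library, as the labels state. WT PC replicate 2 stood apart from the rest, where 63.9% of the read pairs did not align (18.8% to 24.7% elsewhere), and was the shallowest outside the mitochondria. The floor of detection was set at 3 counts of a gene in a library. It equals a normalized count of 1.31 to 5.85, depending on the library, and covers counting error only. The 10 cardiomyocyte markers had overlapping summed normalized counts of 409761 to 665669 in PCs and 584807 to 712553 in VMs. Ttn alone had a mean of 366245 over all libraries. Ryr2 was lower in KO PCs than in KO VMs (-0.54 on the log2 scale, adjusted p = 0.167 by edgeR). It was higher in KO VMs than in WT VMs (0.48, adjusted p = 0.909 by edgeR). Both passed an unadjusted p under 0.05, and no other marker of this list did in a comparison of 2 groups. Purkinje cell markers summed to 854, 1717 and 2211 in WT PCs, to 323, 293 and 1299 in KO PCs and to 58.4 to 134 in VMs. The ratio of PC to VM means was 21.3 in WT and 5.18 in KO, and KO PC replicates 1 and 2 lay below the other 4 PC libraries.

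Most of the family was weakly detected in these cells. Of the 44 genes, 3 (Col24a1, Col26a1 and Col6a4) had no count in any library and 11 more were at the floor in all 12. Another 12 rose above the floor in some library but had a mean normalized count of 5 or less, with at most 21 counts. The remaining 18 had a mean above 5, and 9 had a mean above 20. By class, 5 of 11 fibrillar genes, 5 of 6 type IV genes and 4 of 6 type VI genes had a mean above 5. The other 4 were Col8a1 of the short-chain network collagens, Col14a1 of the fibril-associated collagens, Col15a1 of the multiplexins and Col13a1 of the transmembrane collagens. The basement membrane genes dominated. Col4a1, Col4a2 and Col4a5 made up 31.7%, 20.1% and 13.5% of the summed mean normalized counts of the family, 65.2% together.

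Levels of different genes were compared per kilobase of the longest protein-coding transcript, since longer transcripts give more read pairs. Over all 12 libraries, Col4a1 was highest at a mean normalized count of 41.0 per kb, followed by Col4a2 at 26.6 per kb and Col4a5 at 17.6 per kb. Col3a1 came next at 10.6 per kb. Col1a2, Col6a2, Col15a1 and Col8a1 followed between 6.31 and 4.51 per kb, and their order differed between the groups. Col6a2 stood at 12 ± 4.93 per kb and Col1a2 at 9.18 ± 5.93 per kb in WT PCs (SD, n = 3), a difference within the spread. In KO PCs Col1a2 was the higher, at 9.37 ± 1.84 against 5.36 ± 1.38 per kb. With the length of all annotated exons in place of the transcript, the order of the first 4 was the same and Col1a2 moved from rank 5 to rank 8.

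**Figure D1:**
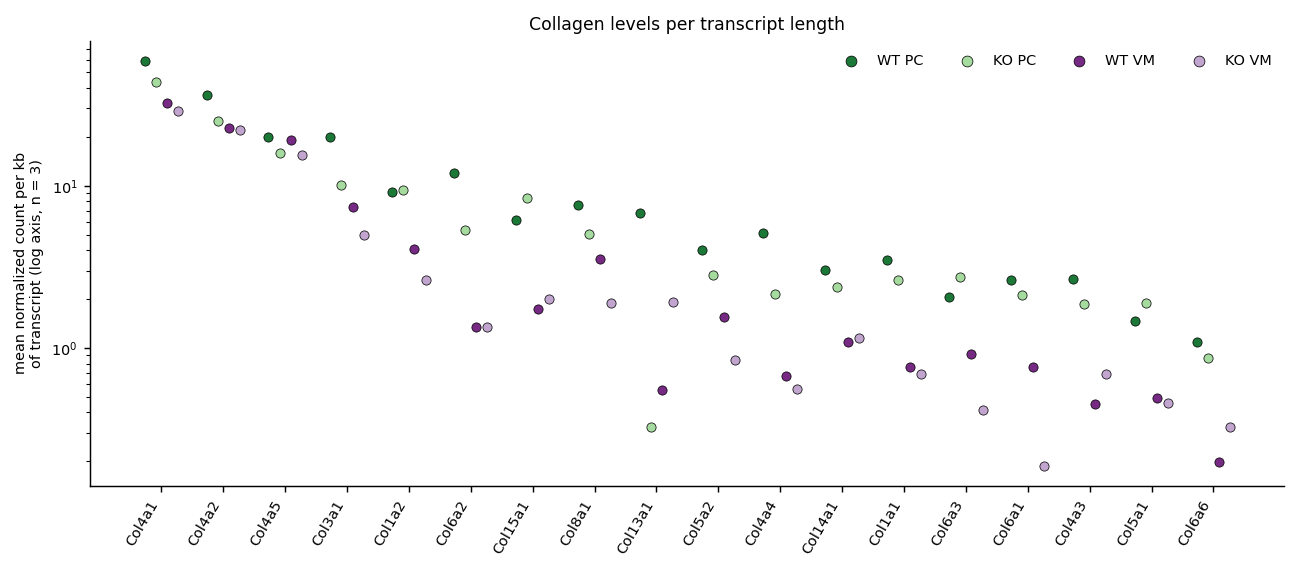
Mean normalized count per kb of the longest protein-coding transcript (y axis, log scale) for the 18 collagen genes with a mean normalized count above 5 (x axis, ordered by the mean over 12 libraries). Each point is the mean of the 3 libraries of a group; Col4a1 reaches 58.9 per kb in WT PCs and 29.1 per kb in KO VMs.

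Some chains that assemble into one molecule differed in level. Type I collagen contains more chains from Col1a1 than from Col1a2, yet Col1a2 had more counts than Col1a1 in 12 of 12 libraries. Per kb of transcript, Col1a2 was 3.34 times Col1a1 by the means over libraries. With all annotated exons this ratio was 1.59, and Col1a2 was then higher in 11 of 12 libraries. In type IV collagen, Col4a1 had more counts than Col4a2 in 12 of 12 libraries and was 1.54 times Col4a2 per kb of transcript. That ratio per kb ran from 1.46 to 2.17 in the 6 PC libraries and from 0.995 to 1.73 in the 6 VM libraries, so the cell types overlapped. In type VI collagen, Col6a2 had 3.51 times the level of Col6a1 per kb of transcript and 3.28 times that of Col6a3. With all annotated exons these ratios were 2.09 and 2.17. Without length scaling Col6a2 exceeded Col6a3 in 6 of 12 libraries, and the ratio per kb of transcript was highest in WT PC replicate 2, at 28.2. The longest transcript of Col1a1 has a GC content of 58.9% and that of Col1a2 of 55.7%. The part of base composition in the ratios was not tested.

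Several of these genes are neighbours (GRCm38). Col4a1 (chr8:11198423-11312826, minus strand) and Col4a2 (chr8:11312805-11449287, plus strand) lie head to head, and their first exons overlap. Col4a4 (chr1:82448423-82586849, minus strand) and Col4a3 (chr1:82586921-82722059, plus strand) are arranged in the same way without overlap of their exons. Col3a1 (chr1:45311538-45349706) and Col5a2 (chr1:45374321-45503282) are adjacent on chromosome 1, on opposite strands. Col6a2 (chr10:76595762-76623630) and Col6a1 (chr10:76708792-76726168) lie on the minus strand of chromosome 10. Col15a1 is at chr4:47208161-47313167, Col1a1 at chr11:94936224-94953042 and Col1a2 at chr6:4504814-4541544. The strand setting of the counting is not given in the sources used here, so read pairs in the overlap of Col4a1 and Col4a2 may be counted for either gene or for none.

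The comparison of PCs with VMs asked which transcripts mark the conducting cells. In WT cells, all 18 collagen genes tested had higher fitted levels in PCs than in VMs, against 49.7% of all genes tested. Of the 18, 9 passed an unadjusted p under 0.05, and all 9 were higher in PCs. By the same rule 5.14% of all 11822 genes tested were called higher, 1.22% lower and 6.36% in either direction. The called genes were Col6a2, Col1a1, Col4a3, Col4a4, Col13a1, Col4a1, Col15a1, Col3a1 and Col6a6. No member passed adjustment over all genes (smallest adjusted p = 0.218, edgeR's quasi-likelihood test, Benjamini-Hochberg), whereas 0.110% of all genes did. By DESeq2's Wald test 1 member passed, Col6a2. The median log2 fold change of the 18 was 1.51, and that of all genes was -0.00. Of the 18, 6 reached a mean of 5 in PCs alone and so entered the test through the group where they were high, among them the called Col1a1, Col4a3, Col13a1 and Col6a6. Of the 12 above 5 in both groups, 5 were called. In 8 of the 18 every PC library lay above every VM library, as in 7.29% of all genes, and in 0 every PC library lay below, as in 6.56% of all genes. The count depended on single VM libraries: it was 3 without WT VM replicate 2 and 3 without WT VM replicate 3 (Col1a1, Col4a4 and Col6a2 each time), and 11 without WT PC replicate 2. In the same libraries the summed fibroblast, endothelial and macrophage markers were 3.80, 2.47 and 4.87 times as high in PCs as in VMs in WT, and 3.72, 4.55 and 5.20 times in KO. Their part was not tested.

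KO PCs were compared with KO VMs in the same way, with no library in common with the WT comparison. All 15 collagen genes tested had higher fitted levels in PCs, against 51.1% of all genes. Of the 15, 10 passed p under 0.05, and all 10 were higher in PCs. Of all 10779 genes tested, 7.11% were called higher, 2.60% lower and 9.70% in either direction. The 10 were Col1a2, Col4a1, Col15a1, Col6a2, Col6a3, Col4a4, Col5a1, Col1a1, Col8a1 and Col5a2. None passed adjustment (smallest adjusted p = 0.0843, for Col1a2, by edgeR's quasi-likelihood test), whereas 0.872% of all genes did. By DESeq2's Wald test 1 member passed, Col1a2. The median log2 fold change was 1.67, against 0.01 for all genes, and 3 of the 15, the called Col1a1, Col5a1 and Col6a3, entered the test through PCs alone. Of the 12 above 5 in both groups, 7 were called. In 10 of the 15 the PC libraries lay above every VM library, as in 8.66% of all genes, and in 0 they lay below, as in 6.92%. Col15a1, Col1a1, Col4a1, Col4a4 and Col6a2 were called in both genotypes, which is 55.6% of the WT calls and 50.0% of the KO calls.

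**Figure D2:**
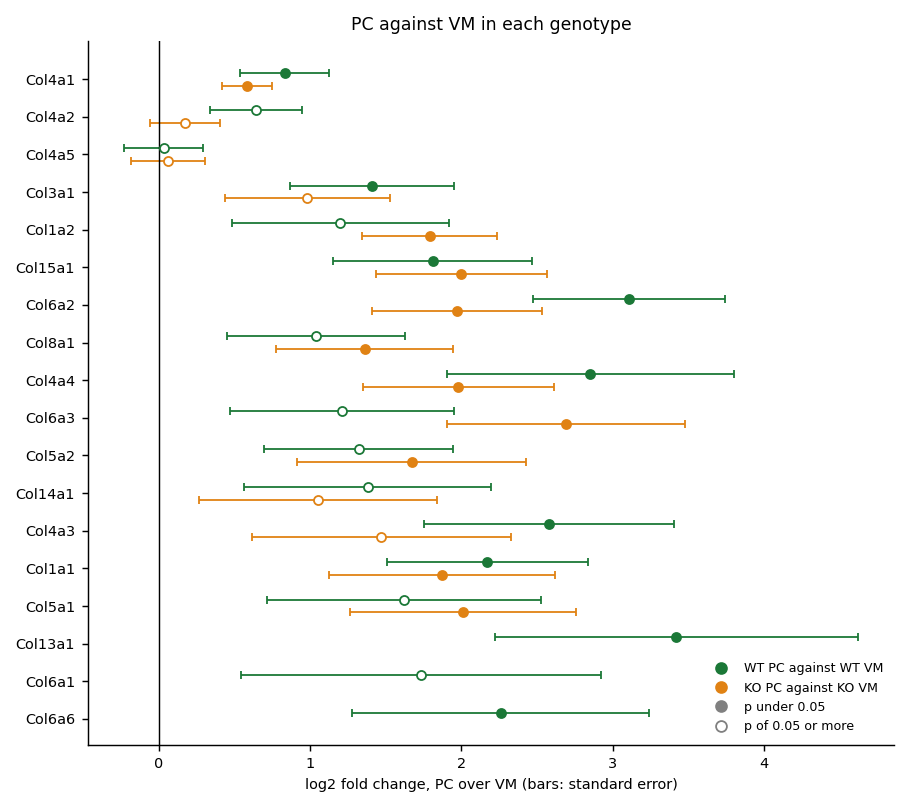
Log2 fold change of PC over VM (x axis, bars are standard errors) of each collagen gene tested (y axis) in WT and in KO cells; filled points passed p under 0.05. All points lie above 0, Col4a5 lies at 0.03 and 0.06, and Col13a1, Col6a1 and Col6a6 were tested in WT only.

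A fit of all 12 libraries, with PC against VM taken over both genotypes, was added after these results were seen. In it 14 of 18 collagen genes were higher in PCs at p under 0.05 and 0 lower, and of all 11323 genes tested 8.54% were called higher, 2.82% lower and 11.4% in either direction. All 18 had higher fitted levels in PCs, against 51.9% of all genes. Col6a2, Col4a1 and Col1a1 passed adjustment over all genes, as did 1.47% of all genes. Of the 18, 6 entered the test through PCs alone, Col1a1 among them, and 9 of the 12 above 5 in both groups were called. The 4 genes not called were Col4a2, Col4a5, Col13a1 and Col14a1. Col6a2 passed adjustment in each of the 12 fits that left out 1 library, and Col4a1 and Col1a1 did not. The number that passed was 9 without WT PC replicate 2. It was 1, Col6a2 alone, without any one of KO PC replicates 1, 2 and 3, KO VM replicates 1 and 2, and WT VM replicates 2 and 3. In 3 of the 18, Col6a2, Col1a1 and Col4a4, all 6 PC libraries lay above all 6 VM libraries, as in 1.40% of all genes.

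The sequence before the start of 2 of the genes called in both genotypes is shown to set them side by side. Of the 5 genes, 4 have a promoter entry, as do 35 of the 44 collagen genes; windows that contain annotated exons were left out, which removed those of Col4a1 and Col4a4 and 1 of 2 of Col6a2, with 3 GGGCGG matches. The sequences are from RefSeq (GRCm38.p6), 250 bases that end at the base before the RefSeq transcription start, written 5′ to 3′ on the gene's strand. Capitals mark GGGCGG, the letters of a GC box, or its reverse complement CCGCCC.
Col6a2 (chr10:76623631-76623880, minus strand): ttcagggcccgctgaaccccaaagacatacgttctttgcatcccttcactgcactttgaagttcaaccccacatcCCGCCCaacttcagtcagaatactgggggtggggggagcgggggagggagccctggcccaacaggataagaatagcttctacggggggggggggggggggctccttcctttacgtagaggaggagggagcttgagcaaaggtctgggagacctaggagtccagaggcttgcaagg
Col15a1 (chr4:47207762-47208011, plus strand): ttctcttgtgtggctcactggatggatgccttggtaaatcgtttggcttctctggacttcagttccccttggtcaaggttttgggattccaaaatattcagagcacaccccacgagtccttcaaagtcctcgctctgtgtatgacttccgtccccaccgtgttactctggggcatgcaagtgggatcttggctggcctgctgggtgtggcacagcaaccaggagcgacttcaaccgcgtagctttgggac
The Col6a2 window shown holds 1 GC box and a GC content of 59.2%, and the Col15a1 window holds 0 and a GC content of 53.6%. Neither holds TATAAA or CCAAT on either strand. GGGCGG is found on either strand in 22 of 38 collagen windows and in 32.7% of all 32851 windows of this length, CCAAT in 13 of 38 and in 33.8%, and TATAAA in 5 of 38 and in 12.4%. These are matches of letters and not measured sites.

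Of the fibrillar, type IV and type VI collagens, type VI had the largest ratio of PC to VM sums, at 4.85 in WT and 4.90 in KO. Col6a2 encodes the alpha2 chain of the beaded filament. Its normalized counts were 30.9, 76.1 and 60.7 in WT PCs and 17.6, 27.8 and 29.4 in KO PCs. In VMs they were 11.3, 3.76 and 3.70 in WT and 4.24, 7.70 and 6.95 in KO. Thus the lowest PC library lay above the highest VM library. The log2 fold change of PC over VM was 3.11 in WT (SE 0.634, adjusted p = 0.218 by edgeR, n = 3 per group), 1.97 in KO (SE 0.565, adjusted p = 0.145 by edgeR) and 2.56 over both genotypes (SE 0.406, adjusted p = 0.00480 by edgeR). An exact permutation test within genotypes (two-sided, 400 relabellings) gave p = 0.005, the smallest it can give; 3 libraries against 3 cannot go below 0.1. Without WT PC replicate 2 the WT log2 fold change was 2.87.

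Col6a3, the large alpha3 chain that carries the filament's long ends, had normalized counts of 30.1, 5.85 and 26.6 in WT PCs and 26.4, 12.6 and 43.4 in KO PCs. It had 15.0, 7.53 and 5.18 in WT VMs and 0, 10.3 and 2.32 in KO VMs. KO PCs lay above KO VMs without overlap (log2 fold change 2.69, SE 0.787, adjusted p = 0.153 by edgeR, n = 3 per group), and the WT groups overlapped (1.21, adjusted p = 0.823). Col6a1, the alpha1 chain, reached 6.36 to 15.6 in WT PCs and 7.35 to 10.1 in KO PCs, with 0 counts in 3 of the 6 VM libraries and at most 8.44 in the others. Col6a6, a later described chain of the same type, had 31 counts in WT PCs and 6 in WT VMs, a ratio of 3.96 after scaling for depth (95% counting interval 1.63 to 11.6, exact Clopper-Pearson). Such an interval covers counting error only and leaves out the spread between libraries. Without WT PC replicate 2 the ratio was 3.17 (1.25 to 9.56) and the gene was not tested, and it was not called by limma voom, with the replicate block, without the filter, in a single fit of all libraries or without any one WT VM library. Its groups did not overlap in WT and did overlap in KO, where KO PC replicate 1 had no count.

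Among the type IV genes tested, the fitted fold changes were smaller at Col4a1, Col4a2 and Col4a5 than at the weaker Col4a3 and Col4a4. Col4a3 entered the WT test through PCs alone, and the weakest chain, Col4a6, was not tested. A trend with abundance was therefore not tested. Col4a1 encodes the alpha1 chain found in every basement membrane. Its normalized counts were 407, 501 and 262 in WT PCs, 285, 280 and 300 in KO PCs, 273, 182 and 186 in WT VMs and 188, 190 and 200 in KO VMs. The WT groups overlapped by a single library each, and the KO groups did not overlap. The log2 fold change of PC over VM was 0.83 in WT (SE 0.294, adjusted p = 0.692 by edgeR, n = 3 per group) and 0.58 in KO (SE 0.164, adjusted p = 0.138 by edgeR). Col4a2, its usual partner chain, had 214, 334 and 158 in WT PCs and 190, 163 and 135 in KO PCs, with 169, 140 and 129 in WT VMs and 106, 186 and 135 in KO VMs. The groups overlapped in both genotypes, and Col4a2 was not called (0.64, adjusted p = 0.798 in WT; 0.17, adjusted p = 0.893 in KO, by edgeR). Without WT PC replicate 2 the WT value was 0.34.

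Col4a5 encodes the alpha5 chain, which assembles with alpha3 and alpha4 in the kidney's filtration barrier and with alpha6 elsewhere. It was the third most abundant collagen, and its levels in PCs and VMs overlapped in both genotypes. Its normalized counts ran from 128 to 133 in WT PCs, from 75.6 to 126 in KO PCs, from 104 to 136 in WT VMs and from 86.3 to 120 in KO VMs. The log2 fold change of PC over VM was 0.05 over both genotypes with SE 0.178 (adjusted p = 0.955 by edgeR), an error that leaves room for modest changes in either direction.

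Col4a4, the alpha4 chain, had 17, 105 and 32.9 in WT PCs and 14.1, 21.5 and 30.1 in KO PCs. It had 13.1, 6.59 and 0.740 in WT VMs and 8.49, 2.57 and 5.79 in KO VMs, so that all PC libraries lay above all VM libraries. The log2 fold change was 2.85 in WT (SE 0.949, adjusted p = 0.662 by edgeR, n = 3 per group) and 1.98 in KO (SE 0.630, adjusted p = 0.199 by edgeR). The highest value belonged to WT PC replicate 2, and without it the WT fold change was 1.89 (adjusted p = 0.333 by edgeR). Col4a3, the alpha3 chain transcribed from the other side of the same interval, had 26.2, 7.80 and 34.7 in WT PCs, 12.3, 7.58 and 28.1 in KO PCs, 7.50, 1.88 and 2.22 in WT VMs and 0, 14.1 and 3.47 in KO VMs. It was called in WT (2.58, SE 0.825, adjusted p = 0.628 by edgeR) and missed the threshold in KO (1.47, adjusted p = 0.638 by edgeR), where the groups overlapped. Its exons overlap an RNA on the opposite strand, C430014B12Rik, with at most 21 counts, which cannot be told apart from it without strand. Col4a6 had at most 8 counts in a library.

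The fibrillar collagens typical of fibroblasts were counted in every PC library, and their separation from VMs differed by gene. Col1a1, the alpha1 chain of type I collagen, had 22.7, 19.5 and 19.6 in WT PCs and 15.8, 16.4 and 14.7 in KO PCs. In VMs it had 4.69, 6.59 and 2.22 in WT and 2.83, 1.28 and 8.10 in KO, all below the lowest PC library. These are small numbers of read pairs, 9 to 52 counts in a PC library and 1 to 7 in a VM library. The log2 fold change was 2.17 in WT (SE 0.665, adjusted p = 0.604 by edgeR, n = 3 per group) and 1.87 in KO (SE 0.748, adjusted p = 0.399 by edgeR).

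Col1a2, the alpha2 chain of type I collagen, had 84.6, 23.4 and 39.3 in WT PCs, 59.8, 50.5 and 40.1 in KO PCs, 40.3, 18.8 and 5.92 in WT VMs and 5.66, 18 and 18.5 in KO VMs. The KO groups stood apart (1.79, SE 0.448, adjusted p = 0.0843 by edgeR, n = 3 per group) and the WT groups overlapped (1.2, adjusted p = 0.821 by edgeR). Without WT PC replicate 2 the WT log2 fold change was 1.53 (adjusted p = 0.283 by edgeR). Col3a1, the chain of type III collagen, had 161, 125 and 48.5 in WT PCs, 66.8, 64.4 and 38.1 in KO PCs, 63.8, 38.6 and 20.7 in WT VMs and 2.83, 50.1 and 30.1 in KO VMs. Both pairs of groups overlapped. It was called in WT (1.41, SE 0.541, adjusted p = 0.734 by edgeR) and not in KO (0.98, adjusted p = 0.620 by edgeR).

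Type V collagen sits inside the fibrils of type I and regulates their width. Col5a2 had 28.3, 29.3 and 22 in WT PCs, 21.1, 15.2 and 20.0 in KO PCs, 18.8, 5.65 and 6.66 in WT VMs and 0, 6.42 and 10.4 in KO VMs, without overlap in either genotype. It was called in KO (1.67, SE 0.758, adjusted p = 0.487 by edgeR, n = 3 per group) and missed the threshold in WT (1.32, adjusted p = 0.798 by edgeR). Col5a1 had 24.4, 3.90 and 8.67 in WT PCs, 19.3, 8.84 and 19.4 in KO PCs, 7.50, 1.88 and 2.96 in WT VMs and 5.66, 1.28 and 4.63 in KO VMs. It was called in KO (2.01, SE 0.750, adjusted p = 0.333 by edgeR), and the WT groups overlapped (1.62, adjusted p = 0.812 by edgeR).

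Col15a1 encodes a collagen of the basement membrane zone of muscle and capillaries, from which an antiangiogenic fragment is released. Its normalized counts were 50.1, 27.3 and 17.3 in WT PCs, 49.2, 37.9 and 43.4 in KO PCs, 15.0, 6.59 and 5.18 in WT VMs and 1.41, 8.99 and 20.8 in KO VMs. Within each genotype every PC library lay above every VM library. The log2 fold change was 1.81 in WT (SE 0.657, adjusted p = 0.698 by edgeR, n = 3 per group) and 2.0 in KO (SE 0.563, adjusted p = 0.138 by edgeR). Col8a1, a short-chain collagen of vessel walls and endothelial matrix, had 38.8, 62.4 and 15.6 in WT PCs, 26.4, 37.9 and 12.7 in KO PCs, 21.6, 12.2 and 20.0 in WT VMs and 5.66, 11.6 and 11.6 in KO VMs. It was called in KO (1.36, SE 0.584, adjusted p = 0.451 by edgeR) and not in WT (1.04, adjusted p = 0.812 by edgeR), where it stood at 0.59 without WT PC replicate 2. Col14a1, which coats fibrils, ranged from 10.5 to 35.1 in PCs and from 0 to 14.1 in VMs and passed in neither genotype.

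**Figure D3:**
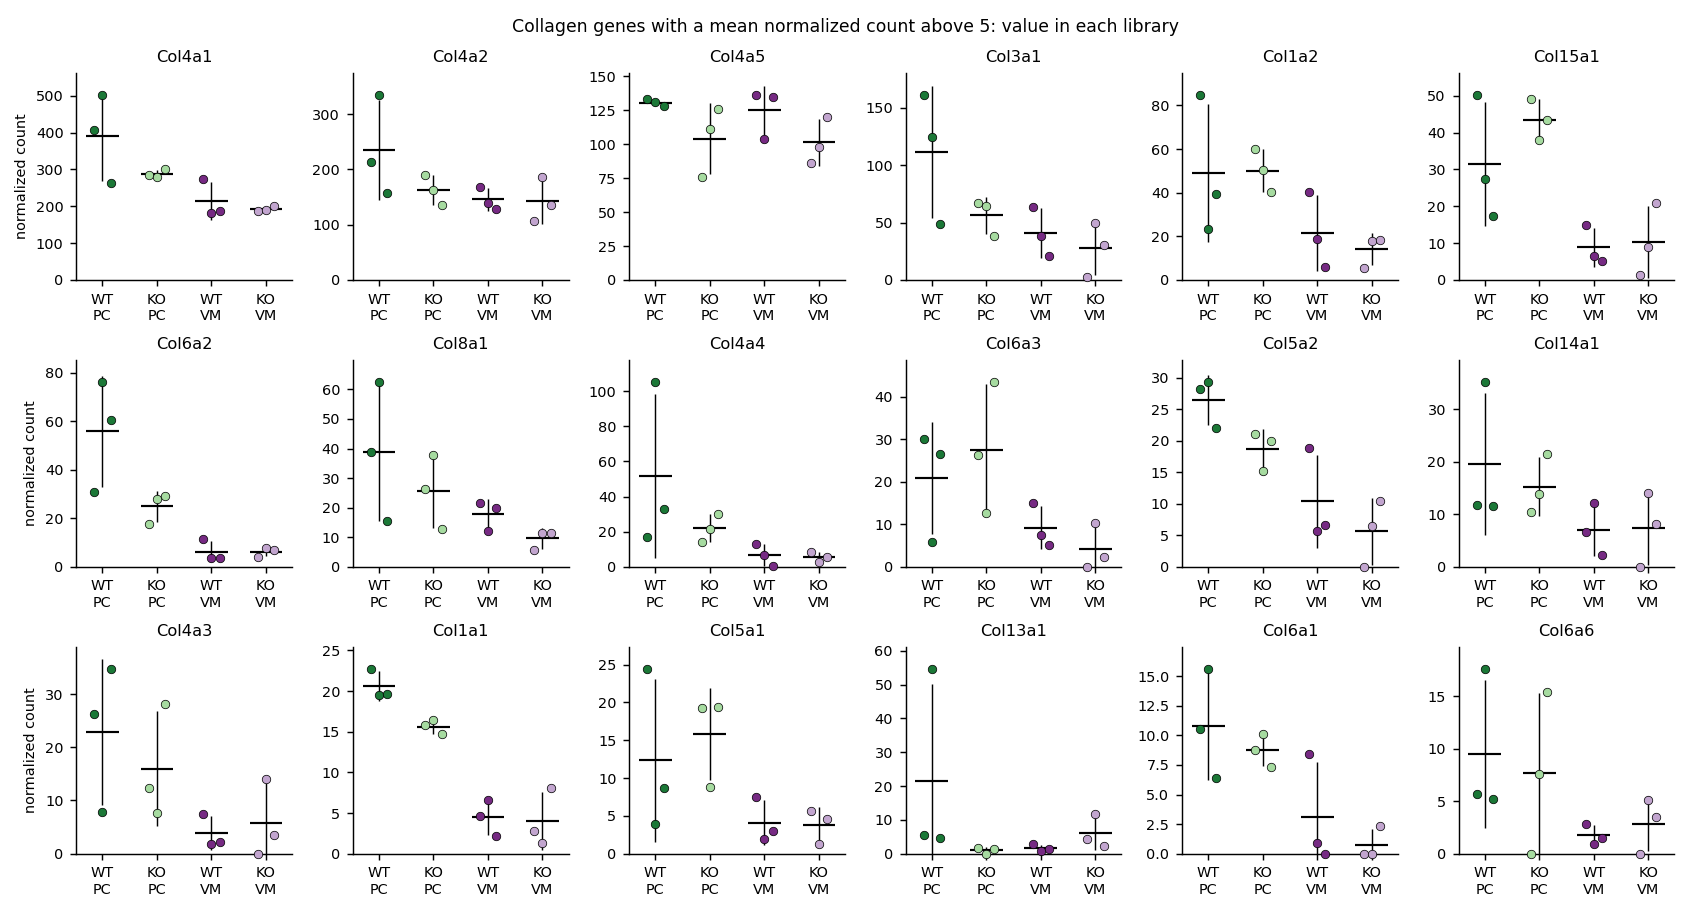
Normalized count (y axis, from 0) of the 18 collagen genes with a mean above 5 in each of the 12 libraries; points are libraries in the order of replicates 1 to 3, horizontal bars are group means and vertical bars 1 SD either way, cut at 0. Col6a2, Col1a1 and Col4a4 separate all PC libraries from all VM libraries, Col4a5 overlaps between PCs and VMs, and the Col13a1 mean in WT PCs rests on replicate 2 at 54.6.

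Markers of other cell types also differed between PCs and VMs in the same libraries. In bulk samples, fewer cells of a type and less RNA per cell cannot be told apart. The 10 fibroblast markers summed to normalized counts of 900 to 2050 in the 6 PC libraries and 175 to 486 in the 6 VM libraries, with the mean of PCs at 3.80 times (WT) or 3.72 times (KO) that of VMs. Over both genotypes 7 of the 9 tested were higher in PCs, among them Dcn at 2.03 on the log2 scale and Vim at 1.97. Such counts are at an unadjusted p under 0.05, by which 8.54% of all genes tested were called higher. Of the fibroblast markers 6 passed adjustment. The 9 endothelial markers summed to 809 to 2695 in PCs and 105 to 780 in VMs, with 8 of 9 higher over both genotypes and 3 past adjustment. The 9 macrophage markers summed to 276 to 843 in PCs and 8.49 to 160 in VMs, with 6 of the 6 tested higher and 3 past adjustment. Tcf21, a fibroblast transcription factor, had a mean of 1.04 over all libraries.

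The summed collagens were dominated by type IV. All 44 genes together summed to 913 to 1584 in PCs and 424 to 834 in VMs, a ratio of means of 1.98 in WT and 1.66 in KO. The fibrillar genes had ratios of 2.65 and 2.73, the type IV genes 1.68 and 1.33 and the type VI genes 4.85 and 4.90. Among VMs, WT VM replicate 1 had the highest sums of fibroblast (486), endothelial (780) and macrophage (160) markers and of collagens (834). KO VM replicate 1 had the lowest of each, at 175, 105, 8.49 and 424. Among PCs, WT PC replicate 2 had the highest fibroblast, macrophage and collagen sums, at 2050, 843 and 1584. The macrophage sums of the other WT PC libraries were 322 and 293. The highest endothelial sum of PCs was that of KO PC replicate 1, at 2695, with a collagen sum of 940. KO PC replicate 3 had the lowest fibroblast and endothelial sums of PCs, at 900 and 809, with a collagen sum of 949. The highest fibrillar sum was that of WT PC replicate 1, at 323, against 205 in WT PC replicate 2. The part of these cell types in the collagen differences was not tested.

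Smooth muscle and pericyte, epicardial and Schwann cell markers were read in the same way, with counts at an unadjusted p under 0.05 beside 8.54% of all genes called higher. The smooth muscle and pericyte list summed to 4036 to 6727 in PCs and 4295 to 4962 in VMs, most of it Abcc9, which cardiomyocytes also express. Abcc9 had means of 3319 in WT PCs and 4159 in KO PCs, where the list had 4593 and 5843. In VMs the Abcc9 means were 3870 in WT and 4281 in KO, where the list had 4629 and 4733. Within the list 5 of the 8 genes tested were higher in PCs over both genotypes, among them Kcnj8 by 2.40 on the log2 scale and Pdgfrb by 2.37, and 3 passed adjustment. The epicardial and mesothelial list summed to 5.27 to 97.2 in PCs and 0 to 24.3 in VMs, with ratios of means of 3.41 in WT and 3.47 in KO. The KO ratio rests on KO PC replicate 2, as the sums of KO PC replicates 1 to 3 were 5.27, 97.2 and 22.1. Of the 3 genes of this list that were tested, 2 were higher over both genotypes and 0 passed adjustment. The Schwann cell list summed to 3.90 to 27.4 in PCs and 2.82 to 12.7 in VMs, with the transcription factor gene Sox10 at 0 in every library.

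**Figure D4:**
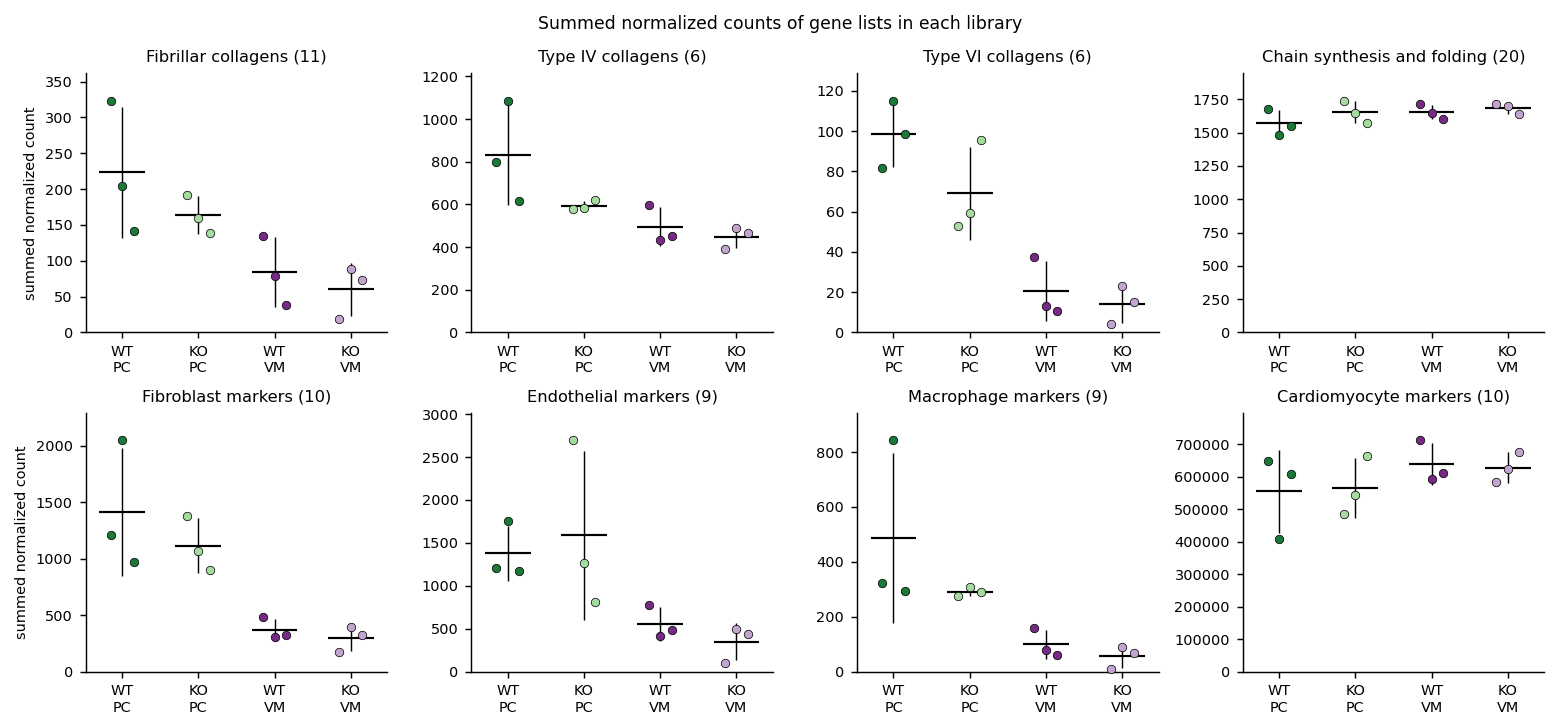
Summed normalized count (y axis, from 0) of 3 collagen classes, the chain synthesis and folding list and 4 marker lists, with the number of genes in parentheses; points are the 3 libraries of each group, horizontal bars means and vertical bars 1 SD either way, cut at 0. Fibroblast, endothelial and macrophage markers and fibrillar and type VI collagens are higher in all PC libraries than in all VM libraries. The margin is narrow for endothelial markers (lowest PC 809, highest VM 780) and fibrillar collagens (139 and 135). The chain synthesis and folding list runs from 1479 to 1738 in PCs and 1604 to 1717 in VMs.

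Genes that make, finish, bind and break down collagen were read from lists of names. Their counts of calls stand beside shares over all genes of 5.14% higher in WT PCs and 7.11% higher in KO PCs. The 20 genes of chain synthesis and folding, such as the prolyl hydroxylases, lysyl hydroxylases and the chaperone Serpinh1, had sums of 1479 to 1738 in PCs and 1604 to 1717 in VMs. Of the 17 tested, 0 passed in WT by edgeR (unadjusted p under 0.05) and 1 in KO, Colgalt2, which adds galactose to hydroxylysine (2.5, adjusted p = 0.282 by edgeR). Colgalt2 had a KO VM mean of 1.71 and entered the KO test through PCs alone. Its value in WT was -1.58 (adjusted p = 0.821 by edgeR), and the difference of KO effects was 4.06 (adjusted p = 0.999 by edgeR, unadjusted p under 0.05). The most abundant were Sec23a, P4hb, Plod2, Mia3 and Serpinh1, whose log2 fold changes over both genotypes lay between -0.21 and 0.09.

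Of the genes of propeptide removal and cross-linking, 3 of 9 tested were higher in WT PCs and 2 of 6 in KO PCs, with 0 lower. Sparc, a collagen-binding matrix glycoprotein, had normalized counts of 283 to 886 in the 6 PC libraries and 55.2 to 138 in the 6 VM libraries. Its log2 fold change of PC over VM was 2.33 in WT (adjusted p = 0.155 by edgeR) and 1.80 in KO (adjusted p = 0.00188 by edgeR). Lox and Loxl2, which cross-link collagen, were called in WT at 2.85 and 4.41. Both had WT VM means of at most 3.06 and entered the test through PCs alone, and neither was tested in KO PCs against KO VMs. Loxl2 had 11.3, 33.2 and 2.89 in WT PCs, with the highest value in replicate 2. Pcolce, which speeds removal of the C-terminal propeptide, was called in KO (1.66, adjusted p = 0.182 by edgeR).

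Among collagen receptors, 1 of 6 tested was higher in WT PCs and 2 of 5 in KO PCs, with 0 lower. Ddr2, the receptor of fibrillar collagen and a member of the fibroblast list too, was higher in both, at 1.87 in WT and 2.12 in KO. Itga1, the collagen-binding integrin subunit, was called in KO (1.26, adjusted p = 0.0420 by edgeR) and had 0.13 in WT. Itgb1 and Cd36, the most abundant of the list, had log2 fold changes of -0.08 and -0.15 over both genotypes.

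Of the breakdown genes, 3 of 5 tested were higher in WT PCs and 4 of 5 in KO PCs, with 0 lower. They include proteases and their inhibitors. Timp3, an inhibitor that binds the matrix, was higher in both (1.15 in WT, 1.72 in KO). Timp2 was called in WT (1.54), as was the protease Fap (2.99), and Mmp2 (3.30), Timp1 (2.62) and Timp4 (2.45) in KO. Fap (WT VM mean 1.88), Mmp2 and Timp1 (KO VM means 2.10 and 1.71) entered these tests through PCs alone. The Fap mean in WT PCs rested on replicate 2, at 37.1 against 9.59 and 2.89. Of the collagenase genes, Mmp8 and Mmp1a had no count, and Mmp13 had a mean of 1.40 with at most 5 counts in a library.

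The comparison of KO with WT asked what loss of Ncam-1 changed. In PCs, 1 of 19 collagen genes tested passed p under 0.05, lower in KO, and none was higher. Of all 11754 genes, 2.70% were called lower, 0.519% higher and 3.22% in either direction. None passed adjustment (smallest adjusted p = 0.993 by edgeR's quasi-likelihood test), and no gene of the transcriptome did. The log2 fold changes were below 0 in 15 of the 19, with a median of -0.40 against -0.00 for all genes, of which 49.8% were above 0. Without WT PC replicate 2 the median was -0.19. In 5 of the 19 the groups did not overlap (Col1a1, Col6a2, Col5a2, Col4a5 and Col13a1), each lower in KO, as in 4.70% of all genes. In 0 they lay higher, as in 4.82% of all genes. An exact permutation test of 3 against 3 gives these p = 0.1, the smallest it can.

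The single call was Col13a1, a transmembrane collagen found at cell adhesions and neuromuscular junctions. It entered the test through WT PCs alone, and of the 17 genes above 5 in both groups 0 were called. Its normalized counts were 5.67, 54.6 and 4.62 in WT PCs, 1.76, 0 and 1.34 in KO PCs, 2.81, 0.941 and 1.48 in WT VMs and 4.24, 11.6 and 2.32 in KO VMs. The WT PC mean rested on replicate 2, which had 28 of the 49 counts of the group. KO PCs had 3 counts in all. WT PCs were 10.3 times as high by summed counts (95% counting interval 3.32 to 51.6, exact Clopper-Pearson), and 4.97 times without replicate 2 (1.48 to 26). The fitted log2 fold change of KO over WT was -4.16 (SE 1.41, adjusted p = 0.993 by edgeR, n = 3 per group), and without replicate 2 Col13a1 fell below the minimum for testing. The same library entered the call of Col13a1 in WT PCs against WT VMs, where the ratio of summed counts was 6.27 (2.68 to 17.9) with it and 3.03 (1.18 to 9.17) without. All these intervals cover counting error only and leave out the spread between libraries, so they do not test a difference between groups.

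After Col13a1, the smallest p-values in PCs were those of Col6a2 and Col3a1. Col6a2 was lower in KO PCs by -1.12 on the log2 scale (SE 0.522, adjusted p = 0.993 by edgeR, n = 3 per group) and Col3a1 by -0.99 (SE 0.487, adjusted p = 0.993 by edgeR). Neither passed. The number called was 3 without WT PC replicate 1 (Col13a1, Col4a4 and Col6a2), 3 without WT PC replicate 3 (Col13a1, Col3a1 and Col4a1) and 1 without WT PC replicate 2 (Col3a1). The abundant type IV chains had log2 fold changes of -0.43 for Col4a1 (SE 0.278), -0.53 for Col4a2 (SE 0.322) and -0.31 for Col4a5 (SE 0.320). Col15a1 (0.44), Col6a3 (0.35), Col5a1 (0.29) and Col23a1 (0.59) were above 0, none past the test. The fibroblast markers, in the same libraries, had 0 of 9 called and a median of -0.46. The endothelial markers had 0 of 9 called and a median of 0.01. The smooth muscle and pericyte markers had 0 of 8 called and a median of 0.07. Of the macrophage markers 1 of 7 was lower, Cd163 (-1.70), with a median of -0.68. Of the Purkinje cell markers 4 of 8 were lower and 1 higher, with a median of -1.28. The part of these in the collagen values was not tested. Of the pathway genes, the protease inhibitor Timp1 was higher in KO PCs (2.96) and Timp2 lower (-1.09), with no other call among them. Timp1 had a WT PC mean of 1.06 and entered the test through KO PCs alone.

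In VMs, 0 of 12 collagen genes passed by edgeR or by DESeq2's Wald test at an unadjusted p under 0.05, against 5.12% of all 10737 genes (1.87% higher, 3.25% lower). None passed adjustment, whereas 0.0373% of all genes did. The fitted change was above 0 in 3 of the 12, against 47.0% of all genes. The median log2 fold change of the 12 was -0.28 and that of all genes -0.02. The smallest p belonged to Col8a1, at -0.89 (SE 0.486, adjusted p = 0.959 by edgeR, n = 3 per group), whose groups did not overlap, with KO lower, as in 5.03% of all genes. In no collagen gene did KO lie above WT without overlap, as in 4.60% of all genes. In the same comparison Dpt of the fibroblast list (-2.11) and Kdr and Egfl7 of the endothelial list (-0.91 and -1.67) were lower in KO VMs. So were Myh11 and Pdgfrb of the smooth muscle and pericyte list (-1.90 and -2.30). Of the collagen pathway, Mmp2 (-2.36), Timp3 (-0.75) and Itga1 (-0.59) were lower in KO VMs and the folding enzyme Ppib was higher (1.1). Dpt, Egfl7, Pdgfrb and Mmp2 entered the test through WT VMs alone, with KO VM means of 3.34, 4.71, 2.91 and 2.10. Without KO VM replicate 2 the count was 1, Col6a3. The depth of these libraries leaves wide errors, with standard errors of 0.184 to 0.828 on the log2 scale.

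**Figure D5:**
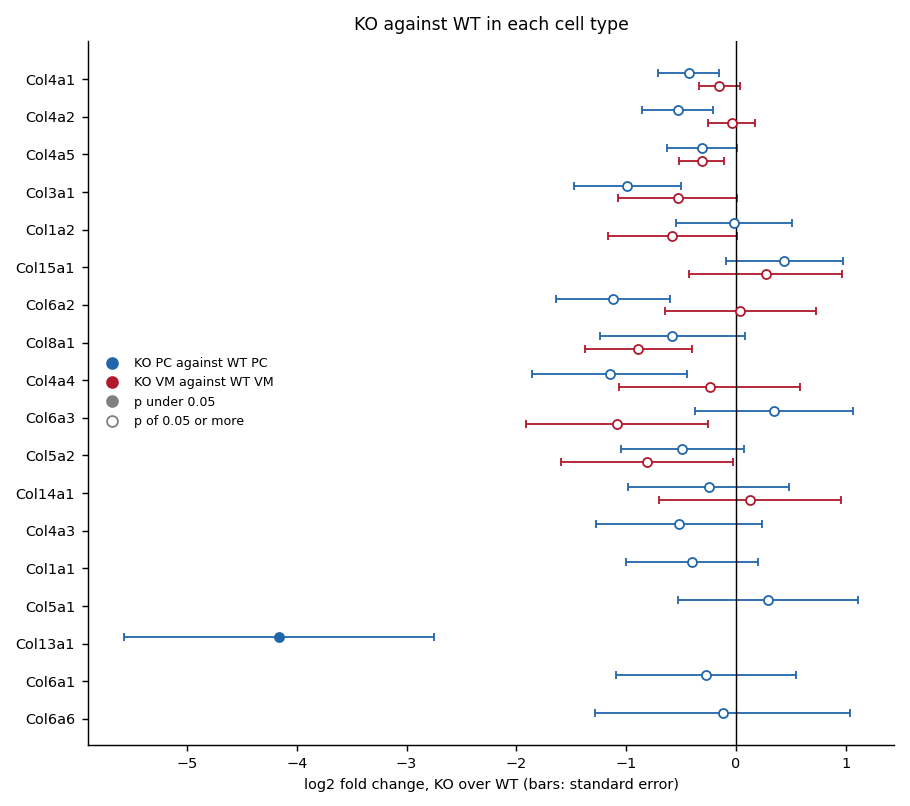
Log2 fold change of KO over WT (x axis, bars are standard errors) of the collagen genes with a mean above 5 over all libraries (y axis) in PCs and in VMs; filled points passed p under 0.05. The single filled point is Col13a1 in PCs at -4.16, and 12 genes were tested in VMs.

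The effect of the KO was also compared between PCs and VMs. Of 18 collagen genes tested, 1 passed p under 0.05, Col13a1, with the KO effect lower in PCs. Of all 11323 genes, 1.86% passed lower, 1.03% higher and 2.90% in either direction. No collagen gene and no other gene passed adjustment. The difference of the effects (PC minus VM) was -5.87 for Col13a1 (SE 1.69, adjusted p = 0.999 by edgeR). Without WT PC replicate 2 the count was 0; it was 2 without KO VM replicate 2, with Col6a3, and 2 without WT VM replicate 1, with Col6a2. For Col4a5 the difference was -0.01 (SE 0.356) and for Col4a1 it was -0.28 (SE 0.340). In the rarer chains the errors were larger, 1.19 for Col4a4 and 1.67 for Col6a1.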

How the data were processed

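For each of the 12 libraries the authors deposited raw counts of read pairs per gene, without normalization, made with STAR 2.5.0c on mm10 and HTSeq 0.6.0. Classes of pairs on no gene were left out of tests. Positions and transcript lengths came from GENCODE M21 (GRCm38), in which 382 identifiers are absent. Groups and replicate numbers came from the sample titles. The normalized count is the count divided by the library's effective size (TMM) and multiplied by the geometric mean of these sizes.

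Each comparison of a pair of groups was fitted in R 4.3.3 with edgeR 4.0.16 (quasi-likelihood test) on their 6 libraries, with genes above a mean normalized count of 5 and Benjamini-Hochberg adjustment over all genes. Calls are at p under 0.05, the study's threshold, or at adjusted p under 0.05. Exact permutation tests took log2 of the normalized count plus 2. The alternatives used DESeq2 1.42.0, limma 3.58.1, no filter, a replicate block, 1 model for the 12 libraries together, and fits that left out single libraries. The fit over both genotypes was added after the data were seen. The steps were tested on simulated data. The collagen genes and the lists of pathway and marker genes were chosen with earlier results of these data known. Collagen genes with a mean above 20 or with p under 0.05 in a comparison of 2 groups are given by library, the others by level or class. From the pathway and marker lists, called genes and the most abundant ones are named. Col14a1, Col6a1 and Col23a1 are named by level, and Col4a6 was named after its values were seen. The library totals of 1532393 to 6761356 counts outside the mitochondria limit the precision for weak genes. One marker gene is not reported here.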

Additional observations from a re-analysis of the deposited data

Results flagged for a closer look

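The effect of the KO on Col13a1 differed between PCs and VMs in a test of the difference itself, at -5.87 on the log2 scale (adjusted p = 0.999 by edgeR, unadjusted p under 0.05). The effect was below 0 in PCs and was not tested in VMs, where the mean normalized count was too low. The difference did not pass adjustment over all genes, and without WT PC replicate 2 the gene was not tested.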

How the results depend on the processing

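The numbers of collagen genes called at p under 0.05 stayed within 1.5 times the reported count in every other fit of all libraries for the 3 comparisons of PCs with VMs and for the difference of KO effects, and at 0 for KO VM against WT VM. For KO PC against WT PC the count was 2 by DESeq2's Wald test and in the single fit, 3 without the filter, and 0 by limma voom and with the replicate block. Counts at adjusted p moved more. In WT they were 1 by DESeq2 and in the single fit and 2 without the filter and by voom. In KO they were 1 by DESeq2 and 3 without the filter. Over both genotypes they were 8 by DESeq2, 9 without the filter, 11 by voom and 1 with the replicate block. Without the filter the median log2 fold change was 1.22 over both genotypes, with 41 genes tested, and 0.30 for the difference of KO effects.

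With single libraries left out, the counts called ran from 3 to 11 for PCs against VMs in WT, 7 to 9 in KO, 1 to 3 in KO PC against WT PC, 0 to 1 in KO VM against WT VM, 0 to 2 for the difference of KO effects and 11 to 16 over both genotypes. Counts at adjusted p ran from 0 to 2 in WT, 1 to 9 over both genotypes and stayed at 0 elsewhere. Medians ran from 1.13 to 2.14 in WT, 1.11 to 2.01 in KO, -0.52 to -0.19 for KO PC against WT PC, -0.55 to 0.05 for KO VM against WT VM, -0.45 to 0.04 for the difference of KO effects and 1.33 to 1.99 over both genotypes. The values that changed sign were near 0 and uncalled: Col4a5 (PC over VM) in WT at -0.08 without WT VM replicate 2; in KO at -0.02 by voom, -0.11 without KO PC replicate 3 and -0.06 without KO VM replicate 1; over both genotypes at -0.05 without KO PC replicate 3, -0.03 without KO VM replicate 1 and -0.00 without WT VM replicate 2; Col4a2 in KO at -0.01 without KO VM replicate 1; and Col4a1 (KO over WT in VMs) at 0.05 without WT VM replicate 1. Over all fits that left out a library, Col4a5 reached 0.10 in WT, 0.22 in KO and 0.14 over both genotypes, Col4a2 in KO 0.41 and Col4a1 in VMs -0.23 at the other end. The causes were not tested.

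The block on replicate number gave 7 calls in WT, 11 in KO and 16 over both genotypes. The labels do not say whether libraries of one number share a heart, so pairing is undetermined and the main fits leave it out. The correlations of same-numbered PC and VM libraries were 0.207, 0.0813 and 0.15 in WT and -0.00956, 0.121 and 0.0185 in KO (8100 genes). Each WT PC library correlated best with the VM library of its own number, a hint from the data and not from the design. Depth limits the rarer chains, with 1 to 7 counts of Col1a1 in a VM library.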
